A study of Mus musculus with 5 samples.

Results

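The SMAD family genes Smad1, Smad2, Smad3, Smad4, Smad5, Smad6, Smad7 and Smad9 were followed in undifferentiated mouse embryonic stem cells. All 8 of 8 were measured, among 19938 genes in all. They were chosen by symbol, and each was read from the single array feature that the platform annotation gives to that gene alone. The 3 Mkl2-/- cultures were compared with 2 wild-type cultures, both of strain C57BL/6 and of the same cell type. All cultures grew with LIF and serum on gelatin with feeder fibroblasts, which were allowed to attach and were left behind before RNA was extracted. Mkl2 (current symbol Mrtfb) is a coactivator gene of the myocardin-related family whose product works with serum response factor (SRF), and the series asks how it affects TGF-beta signalling. The labels name neither the mutant allele nor the number of cell lines behind the cultures, so p-values measure the spread between cultures. Values are log2 expression as deposited, from Affymetrix whole-transcript arrays. A difference is Mkl2-/- minus wild type, and n is 3 for Mkl2-/- and 2 for wild type throughout.

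SMAD proteins carry signals of the TGF-beta superfamily from receptors at the cell surface into the nucleus. SMAD2 and SMAD3 are phosphorylated by receptors for TGF-beta, activin and Nodal, while SMAD1, SMAD5 and SMAD9 are phosphorylated by receptors for bone morphogenetic proteins (BMPs). Both kinds join SMAD4, the common partner, and bind DNA, whereas SMAD6 and SMAD7 inhibit the pathway and are themselves induced by it. In mouse embryonic stem cells, Nodal and activin signal through SMAD2 and SMAD3, and BMP4 signals through SMAD1 and SMAD5 to induce Id genes.

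Across the family, 1 gene passed the test and it fell: Smad3. The test was limma with Benjamini-Hochberg adjustment over all 19938 genes and a threshold of 0.05, which 9.27% of all genes passed (6.28% as lower and 2.99% as higher). In a family of 8 genes, 1 is near that share. The median difference of the 8 genes was -0.12, beside 0.02 over all genes tested, and 7 of the 8 differences were below 0. In 3 members, Smad3, Smad5 and Smad6, every Mkl2-/- array lay below both wild-type arrays. Over all genes, 16.7% had arrays that did not overlap in that direction. None of the 8 lay at or below the background level of 7.30, taken from 1027 olfactory receptor genes, on any array. When only the 13564 genes above that level were tested, 2359 of them passed, among them 2 of the 8.

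**Figure D1:**
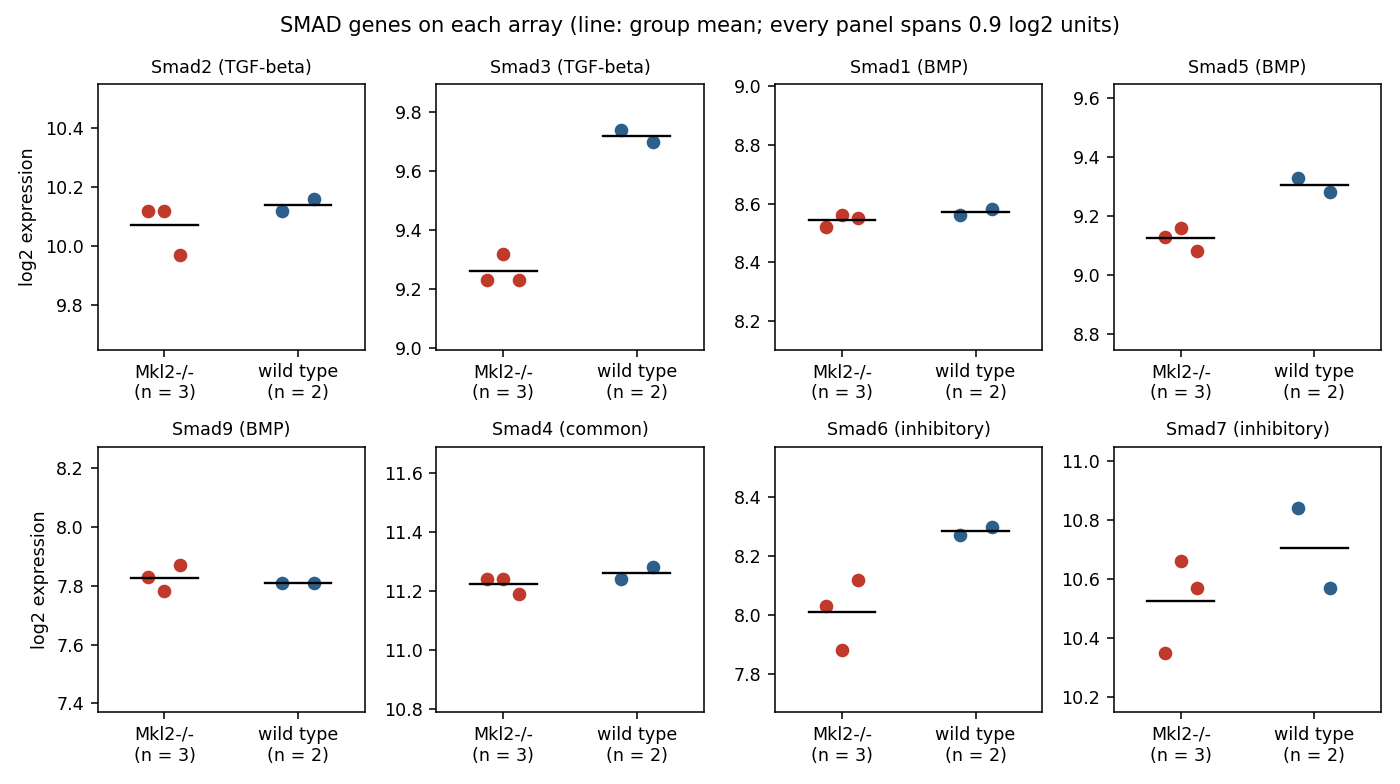
Log2 expression of the 8 SMAD genes on each array, Mkl2-/- (red, n = 3) left of wild type (blue, n = 2), with a line at each group mean and the same span of the axis in every panel. Smad3, Smad5 and Smad6 show no overlap between groups, and Smad7 has the widest spread within groups.

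The whole data set gives the scale for these values. The feature of Mkl2 used here read 9.32, 9.32 and 9.09 in Mkl2-/- cells and 9.80 and 9.75 in wild-type cells (-0.53 ± 0.09 SE, limma adjusted p = 0.048), and the labels do not say whether it lies in a deleted part. It is the brightest of 3 Mkl2 features. In a fit over all features the other two differed more, by -0.83 (adjusted p = 0.0205) and -0.98 (adjusted p = 0.0309), while the brightest had an adjusted p of 0.067. Mkl1 (Mrtfa), its close relative, differed by 0.01 (adjusted p = 0.664), and Srf by -0.16 (adjusted p = 0.0997). All 18 embryonic stem cell markers lay above background on every array. Of these, 4 rose (Fgf4, Dppa4, Dppa5a and Utf1) and 3 fell (Nanog, Klf4 and Tfcp2l1), or 38.9%, beside 9.27% of all genes. The differences ran from -1.14 (Nanog) to 0.74 (Dppa4). The summed log2 level of 29 fibroblast markers was 232.56 to 233.75 on Mkl2-/- arrays and 234.82 to 234.83 on wild-type arrays. Of the 29, 3 fell and 2 rose (17.2%), and 5, among them Postn, Lum and Fap, lay below background on all arrays. That of 13 primitive endoderm markers was 115.3 to 117.59 in Mkl2-/- cells and 108.29 to 108.93 in wild-type cells. Of these 13, 5 rose (Cubn, Lama1, Pdgfra, Gata4 and Gata6) and 1 fell (Sparc), or 46.2%. The differences ran from -0.24 (Sparc) to 2.87 (Cubn). Afp lay below background on all arrays, and Pdgfra and Sparc also stand in the fibroblast list. In bulk RNA, fewer cells of a type and less RNA per cell cannot be told apart.

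Smad3 encodes one of the 2 receptor-regulated SMADs of the TGF-beta, activin and Nodal branch, and the one of that pair whose usual form binds DNA directly. Its expression was 9.23, 9.32 and 9.23 in Mkl2-/- cells, against 9.74 and 9.70 in wild-type cells. The highest Mkl2-/- array stood 0.38 below the lowest wild-type array. The group means were 9.26 ± 0.05 and 9.72 ± 0.03 (SD), so Smad3 fell 1.38-fold in Mkl2-/- cells, to 72.7% of the wild-type intensity (-0.46 ± 0.04 SE, 95% interval -0.57 to -0.35, limma adjusted p = 0.0131). Smad3 ranked 460th of 19938 genes by p and 692nd by size among the lower genes. The direction held without each array in turn, with differences of -0.49 to -0.44. The adjusted p was 0.0392 without Mkl2-/- replicate 2, and the call was lost without Mkl2-/- replicate 1 (0.0666), Mkl2-/- replicate 3 (0.0665), wild-type replicate 1 (0.0681) or wild-type replicate 2 (0.0829). With the fibroblast marker mean as a covariate the difference was -0.59 and the adjusted p 0.141, in a fit in which 0 of all genes passed and 3039 had an unadjusted p under 0.05. That marker mean did not overlap between the groups, so this fit cannot separate it from genotype. The part of the primitive endoderm markers in the Smad3 result was not tested.

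The region around the Smad3 start site is shown because Smad3 is the member that passed the test. RefSeq places it on the minus strand of GRCm38.p6 at chr9:63757945-63758244, from 250 bases before to 50 after the start of the gene, and it is written along the gene's strand. Windows of this kind were found for 5 of the 8 members and are credited to RefSeq. They were searched on both strands for the SMAD-binding palindrome GTCTAGAC, the SMAD half-site CAGAC, the GC-rich SMAD element GGCGCC and the CArG box, the SRF site. Among 32851 such windows of all genes, 0.213% held the palindrome, 49.6% the half-site, 11.9% the GC-rich element and 1.63% a CArG box. None of the 4 motifs occurs in the Smad3 window, so it has no capitals.
Smad3: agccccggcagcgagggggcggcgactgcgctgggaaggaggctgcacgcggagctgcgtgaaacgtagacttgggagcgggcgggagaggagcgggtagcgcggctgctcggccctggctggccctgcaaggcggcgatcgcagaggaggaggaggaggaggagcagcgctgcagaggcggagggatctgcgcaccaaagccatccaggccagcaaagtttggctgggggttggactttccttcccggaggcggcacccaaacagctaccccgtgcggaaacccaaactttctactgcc

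Smad2, the paralog of Smad3 in the same branch, did not pass the test. It read 10.12, 10.12 and 9.97 in Mkl2-/- cells and 10.12 and 10.16 in wild-type cells (-0.07 ± 0.06 SE, 95% interval -0.24 to 0.10, limma adjusted p = 0.476). On 2 arrays, Mkl2-/- values equalled wild-type replicate 1 to 2 decimals, and Mkl2-/- replicate 3 alone was lower. The log2 ratio of Smad3 to Smad2 on the same array was -0.89, -0.80 and -0.74 in Mkl2-/- cells and -0.38 and -0.46 in wild-type cells. These ratios compare features of unequal response, so only their change between groups can be read. That change was -0.39, with no overlap between groups. Its two-sided exact permutation p was 0.1, the smallest that 10 possible splits of the arrays can give, and 0.167 after Benjamini-Hochberg adjustment over 5 pairs of members. An exact permutation over these 5 arrays cannot go below that value.

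Among the SMADs of the BMP branch, Smad5 was lower without passing the test and the arrays of Smad1 and Smad9 overlapped. Smad5 expression was 9.13, 9.16 and 9.08 in Mkl2-/- cells, against 9.33 and 9.28 in wild-type cells. All 3 Mkl2-/- arrays lay below both wild-type arrays, by 0.12 or more. The difference was -0.18 ± 0.03 (SE, 1.13-fold, 95% interval -0.27 to -0.09), with a limma adjusted p of 0.0551, just outside the threshold. The adjusted p was under it in 4 of 16 alternative settings (0.0184 to 0.0488): cyclic loess, each of 2 filters on dim genes, and array weights. The filters leave the difference at -0.18. In limma without moderation the adjusted p was 0.1375, with the replicate number as a block 0.2698 and with the fibroblast covariate 0.2439. Without Mkl2-/- replicates 1, 2 and 3 it was 0.182, 0.1098 and 0.1181. Of the 3 annotated Smad5 start windows, the first in genome order lies on the plus strand at chr13:56702760-56703059. It is shown because Smad5 was next to the threshold, and its capitals mark one GGCGCC, 24 bases into the gene.
Smad5: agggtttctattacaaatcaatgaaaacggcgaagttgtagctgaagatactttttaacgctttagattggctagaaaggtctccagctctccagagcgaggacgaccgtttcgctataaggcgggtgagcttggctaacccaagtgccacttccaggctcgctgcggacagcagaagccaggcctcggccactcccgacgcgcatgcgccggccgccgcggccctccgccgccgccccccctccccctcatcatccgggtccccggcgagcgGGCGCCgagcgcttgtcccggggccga

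Smad1 gave 8.52, 8.56 and 8.55 in Mkl2-/- cells and 8.56 and 8.58 in wild-type cells. The groups overlapped, and the 95% interval of the difference was -0.08 to 0.02 (-0.03 ± 0.02 SE, limma adjusted p = 0.404). Smad9, which encodes the SMAD also called SMAD8, gave 7.83, 7.78 and 7.87 in Mkl2-/- cells and 7.81 on both wild-type arrays. It was the only member with a mean higher in Mkl2-/- cells, by 0.02 ± 0.03 (SE, 95% interval -0.07 to 0.10, limma adjusted p = 0.734), and its arrays overlapped. The log2 ratio of Smad5 to Smad1 on the same array was 0.61, 0.60 and 0.53 in Mkl2-/- cells and 0.77 and 0.70 in wild-type cells. These ratios did not overlap and changed by -0.155 (exact permutation p = 0.1, adjusted 0.167). The ratio of Smad3 to Smad5 changed by -0.28 without overlap (exact permutation p = 0.1, adjusted 0.167), and that of Smad3 to Smad6 by -0.185 with overlap (exact permutation p = 0.3, adjusted 0.375).

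Smad4, the common partner of both branches, was 11.24, 11.24 and 11.19 in Mkl2-/- cells and 11.24 and 11.28 in wild-type cells. Of these 5 arrays, 3, from both groups, held the same value. The difference was -0.04 ± 0.02 (SE, limma adjusted p = 0.406), and its 95% interval ran from -0.11 to 0.03, which leaves room for at most a 1.08-fold decrease.

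The inhibitory SMAD genes were lower on average, and neither passed the test. Smad6, which acts mainly against BMP signalling, was 8.03, 7.88 and 8.12 in Mkl2-/- cells, against 8.27 and 8.30 in wild-type cells. Every Mkl2-/- array lay at least 0.15 below both wild-type arrays. The 3 Mkl2-/- arrays spread more (SD 0.12) than the 2 wild-type arrays (SD 0.02). The difference was -0.275 ± 0.08 (SE, 1.21-fold, 95% interval -0.50 to -0.05), with a limma adjusted p of 0.149. After cyclic loess the adjusted p was 0.0415, and with the fibroblast marker mean as a covariate the difference was 0.02. That marker mean was 8.019 to 8.06 on Mkl2-/- arrays and 8.097 to 8.098 on wild-type arrays. Without overlap between the groups, this fit cannot separate it from genotype.

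The Smad6 start window is shown because it holds the SMAD-binding palindrome, found in 70 of the 32851 windows. It lies on the minus strand at chr9:64022010-64022309, and the capitals mark GTCTAGAC, which begins 4 bases before the start of the gene. None of the other 3 motifs occurs there. The window of Smad9 held one GGCGCC, that of Smad1 none of the 4 motifs, and no member window held a CArG box. The member windows are rich in G and C (63.0% to 73.7%, beside a median of 52.7% over all windows). A match is only a match of letters, and no binding was measured in these cells.
Smad6: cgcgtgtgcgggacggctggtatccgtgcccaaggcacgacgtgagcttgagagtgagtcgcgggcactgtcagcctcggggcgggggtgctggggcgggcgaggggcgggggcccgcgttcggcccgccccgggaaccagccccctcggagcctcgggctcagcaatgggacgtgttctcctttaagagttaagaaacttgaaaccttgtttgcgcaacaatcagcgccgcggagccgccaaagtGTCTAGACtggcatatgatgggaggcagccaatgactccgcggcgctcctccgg

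Smad7, which acts against both branches, varied most within groups. Its values were 10.35, 10.66 and 10.57 in Mkl2-/- cells and 10.84 and 10.57 in wild-type cells. The lowest wild-type array equalled Mkl2-/- replicate 3, and the groups overlapped. The pooled SD of Smad7 was 0.171, beside a median of 0.050 over all genes. The difference was -0.18 ± 0.14 (SE, limma adjusted p = 0.444), and the 95% interval of -0.56 to 0.21 covers both a 1.48-fold decrease and an increase. Without wild-type replicate 1 the difference was -0.04, without wild-type replicate 2 it was -0.31, and without Mkl2-/- replicate 1 it was -0.09. The ratio of Smad6 to Smad7 changed by -0.10, with overlap between groups (exact permutation p = 0.7, adjusted 0.7).

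**Figure D2:**
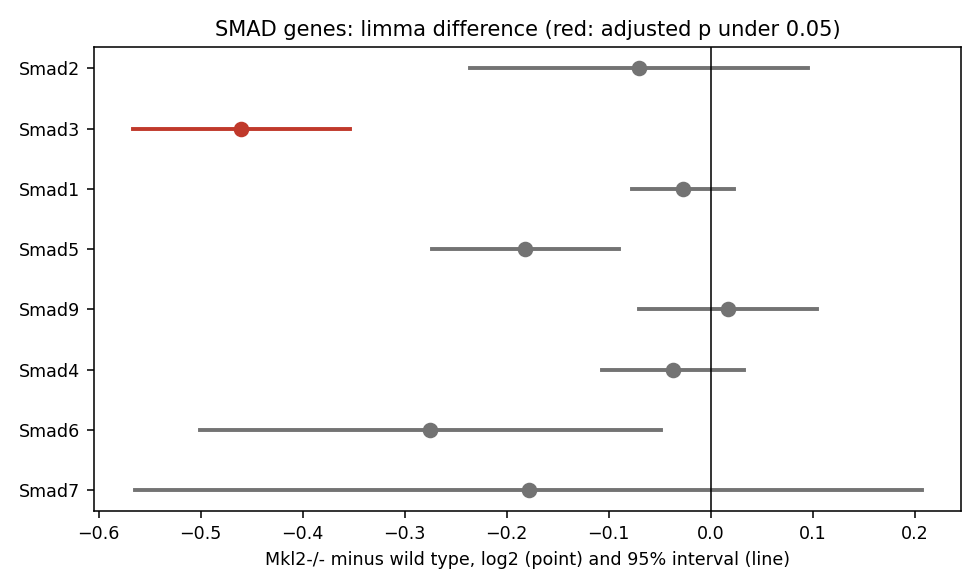
Difference of each SMAD gene, Mkl2-/- minus wild type on the log2 scale, with its 95% interval from limma. Smad3 is the only one drawn in red (adjusted p under 0.05), and the intervals of Smad5 and Smad6 also lie below 0.

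Smad3 and Smad6 are next to each other on chromosome 9 among the genes above background, in RefSeq gene order. Their other immediate neighbours were Aagab, on the far side of Smad3 (-0.035, adjusted p = 0.502), and Zwilch, on the far side of Smad6 (0.08, adjusted p = 0.367). The 20 nearest genes of Smad3, 10 on each side, had a median difference of -0.002, and 0 of them fell while 1 rose. Around the other 7 members the corresponding medians ran from -0.02 (Smad9) to 0.01 (Smad5). The 767 genes above background on chromosome 9 had a median of 0.01. No SMAD gene lies on chromosome 1, whose 758 genes above background had a median of -0.165, and 237 of them passed the test. On the X chromosome, 99 of 409 such genes passed, with a median of -0.05. The gene just before Smad5 is Tgfbi, named here after its value was seen, which encodes an extracellular protein induced by TGF-beta. It differed by -0.59 ± 0.11 (SE, adjusted p = 0.0641). Spock1, on the other side of Smad5, differed by 0.15 (adjusted p = 0.264). Of the 20 nearest genes of Smad5, 2 fell and 1 rose. Tgfbi is one of these 20 and did not pass the test.

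**Figure D3:**
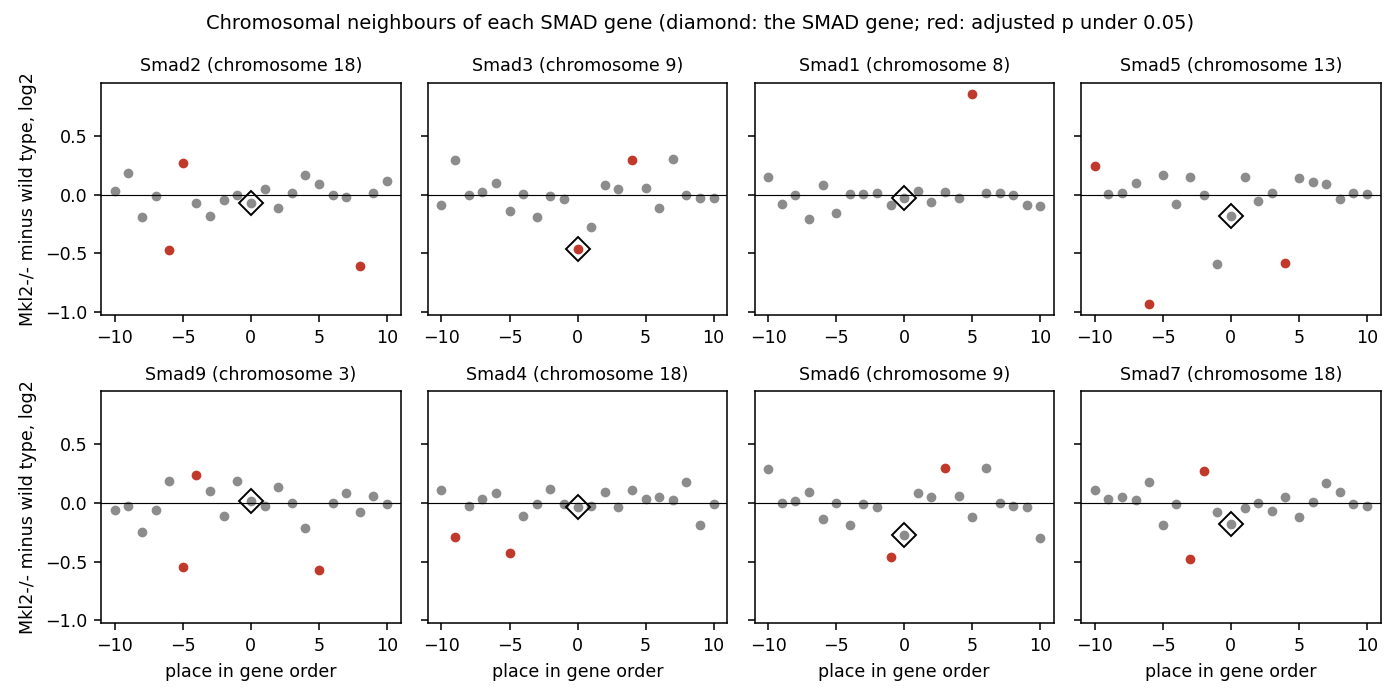
Differences of the 10 nearest genes above background on each side of each SMAD gene, by place in gene order, with the SMAD gene in the diamond at 0 and genes with an adjusted p under 0.05 in red. Smad3 and Smad6 stand next to each other below genes whose median is near 0.

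The genes above background with the pattern most like Smad3 were found by the root mean square distance between centred log2 values over the 5 arrays. They were B3gnt7 (distance 0.007), which encodes a glycosyltransferase, Vcl (0.016), which encodes the adhesion protein vinculin, Kif21b (0.019), a kinesin gene, Ipo9 (0.020), an importin gene, and Rbmx (0.021), an RNA-binding protein gene. Their differences ran from -0.49 (Ipo9) to -0.45 (Vcl), against -0.46 for Smad3. B3gnt7, Kif21b and Ipo9 lie on chromosome 1, Vcl on chromosome 14 and Rbmx on the X chromosome. With 5 arrays in 2 groups, a small distance mostly reflects a group difference of like size.

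Upstream of the SMADs, some ligand genes fell and no receptor gene passed the test. Of 21 ligands, 5 fell and none rose (median -0.07): Tgfb1, Tgfb2, Bmp4, Bmp7 and Nodal. Of all genes, 6.28% fell and 2.99% rose. Without wild-type replicate 2 the ligand count was 0, without wild-type replicate 1 it was 4, and without each Mkl2-/- replicate it was 2. Tgfb2 was 7.82, 7.77 and 7.99 in Mkl2-/- cells, against 9.52 and 9.69 in wild-type cells, the largest difference among the ligands (-1.745 ± 0.09 SE, limma adjusted p = 0.0079). Nodal, a ligand that signals through SMAD2 and SMAD3, was 10.61, 10.78 and 10.69 in Mkl2-/- cells and 11.14 and 11.17 in wild-type cells. Its difference was -0.46 ± 0.06 (SE, adjusted p = 0.0265). Bmp4 was 9.57, 9.53 and 9.43 in Mkl2-/- cells and 10.28 and 10.50 in wild-type cells (-0.88 ± 0.09 SE, adjusted p = 0.0173). It lies on chromosome 14, whereas Tgfb2 lies on chromosome 1. In each of the 5 ligands the arrays of the 2 groups did not overlap, as in 9 of the 21 ligands and 16.7% of all genes in that direction.

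Of the 12 type I and type II receptor genes, 0 passed the limma test, beside 9.27% of all genes. In a list of this size, 0 is near that share. Their median difference was -0.02, and 2 had an unadjusted p under 0.05. In 7 of 16 alternative settings 1 receptor gene passed. The 2 genes with an unadjusted p under 0.05 were Bmpr2, a BMP type II receptor gene on chromosome 1 (11.48, 11.44 and 11.47 in Mkl2-/- cells and 11.73 and 11.92 in wild-type cells, adjusted p = 0.0546), and Acvr1b, which encodes the activin and Nodal type I receptor ALK4 (-0.19 ± 0.06 SE, adjusted p = 0.156). Of the TGF-beta receptor genes, Tgfbr1 differed by -0.11 (95% interval -0.35 to 0.14, adjusted p = 0.462) and Tgfbr2 by -0.003 (95% interval -0.03 to 0.03, adjusted p = 0.842). Among 18 membrane adaptors and accessory genes, Eng rose, and Tgfbr3 and Ldlrad4 fell (16.7%, beside 9.27% of all genes, median -0.09). Ldlrad4 encodes a membrane protein that keeps SMAD2 and SMAD3 from the receptor, and it read 8.43, 8.42 and 8.42 in Mkl2-/- cells, against 8.70 and 8.72 in wild-type cells (-0.29 ± 0.01 SE, adjusted p = 0.0062). Zfyve9, which encodes the anchor protein SARA that presents SMAD2 and SMAD3 to the receptor, differed by -0.07 (adjusted p = 0.337).

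Of 27 genes for SMAD turnover and dephosphorylation, 2 fell and 1 rose (11.1%, near the 9.27% of all genes that passed), and the median was -0.01. Smurf2, a ubiquitin ligase that targets SMADs and receptors, fell to 10.18, 10.25 and 10.15 in Mkl2-/- cells, against 10.41 and 10.43 in wild-type cells (-0.23 ± 0.04 SE, limma adjusted p = 0.0420). Mtmr4, a phosphatase gene whose product acts on phosphorylated SMADs, fell by 0.35 (adjusted p = 0.0322). Ppm1a, which encodes a nuclear phosphatase reported to act on SMAD2 and SMAD3, rose by 0.14 (adjusted p = 0.0426). Smurf1 differed by -0.01 (adjusted p = 0.502). Of 10 nuclear transport genes, 0 passed the limma test, near the 9.27% of all genes for a list of this size, and 2 had an unadjusted p under 0.05. Ipo8, an importin gene for SMADs, was closest to the threshold (0.255 ± 0.04 SE, adjusted p = 0.0502). The median of these 10 was 0.04, and 1 of them passed in 7 of 16 alternative settings.

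Among 34 nuclear partners of the SMADs, 6 fell and 1 rose (20.6%, beside 9.27% of all genes; median -0.03). Zeb2, which encodes a SMAD-interacting repressor, was 7.41, 7.48 and 7.50 in Mkl2-/- cells, against 8.31 and 8.59 in wild-type cells (-0.99 ± 0.10 SE, limma adjusted p = 0.0173). The homeobox gene Mixl1 (-0.75), the stress-response factor gene Atf3 (-0.70), the Wnt pathway repressor gene Tcf7l1 (-0.72), Runx1 (-0.47) and the forkhead gene Foxo4 (-0.20) fell as well. Kat2b, which encodes an acetyltransferase coactivator, rose by 0.53 (adjusted p = 0.0442). Mixl1 and Atf3 lie on chromosome 1, and Foxo4 lies on the X chromosome. Foxh1, which encodes the forkhead partner of SMAD2 and SMAD4 in Nodal signalling, differed by -0.08 (adjusted p = 0.458), and Skil, which encodes the corepressor SnoN, by 0.155 (adjusted p = 0.158).

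Of 17 targets of SMAD2 and SMAD3, 7 fell (41.2%, beside 6.28% of all genes) and none rose (median -0.20): Lefty1, Lefty2, Nodal, Fst, Snai1, Ldlrad4 and Dact1. Nodal and Ldlrad4 were also counted in the lists above. Of the 17 targets, 15 lay above background, whereas the 6.28% also counts genes below it. When only the 13564 genes above background were tested, 1537 of them fell, and 9 targets passed. The target lists were drawn up with earlier results of these data known. Lefty2, which encodes a Nodal antagonist, was 9.21, 8.98 and 8.94 in Mkl2-/- cells, against 10.39 on both wild-type arrays. Its difference was -1.35 ± 0.10 (SE, limma adjusted p = 0.0108). Lefty2 and Lefty1 lie on chromosome 1, where 237 of 758 genes above background passed the test. Ccn2, a target that SRF partners and YAP also induce, differed by -0.09 (adjusted p = 0.393). Of 16 targets of SMAD1 and SMAD5, 4 fell and none rose (median -0.135): Id3, Hey1, Stat3 and Dusp9. Id3, which encodes an inhibitor of basic helix-loop-helix factors, was 8.77, 9.13 and 8.91 in Mkl2-/- cells, against 10.26 and 10.28 in wild-type cells (-1.33 ± 0.12 SE, adjusted p = 0.0148). Of 13 primitive endoderm markers, 5 rose, 1 fell and 7 did not pass the test in the same Mkl2-/- cells. The part of these markers in the target and ligand results was not tested. Id1 was 9.20, 9.43 and 9.37 in Mkl2-/- cells and 9.77 and 9.80 in wild-type cells, without passing the test (adjusted p = 0.0530).

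Over the 149 different genes of these 8 lists, without the SMAD genes, 24 fell and 3 rose, or 18.1%, beside 9.27% of all genes. The 9.27% also counts genes below background, whereas most genes of each list lay above it. The 18.1% and the 9.27% are therefore not matched for expression level. When only the 13564 genes above background were tested, 2359 of them passed, among them 35 list genes. These lists were drawn up with earlier results of these data known, so the shares are a description. The number that passed depended on the arrays: 0 without wild-type replicate 2, 11 without wild-type replicate 1, and 7, 11 and 6 without Mkl2-/- replicates 1, 2 and 3. The count over all genes moved as well, to 0 without wild-type replicate 2, 963 without wild-type replicate 1, and 333, 403 and 448 without Mkl2-/- replicates 1, 2 and 3, beside 1848 with all arrays.

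**Figure D4:**
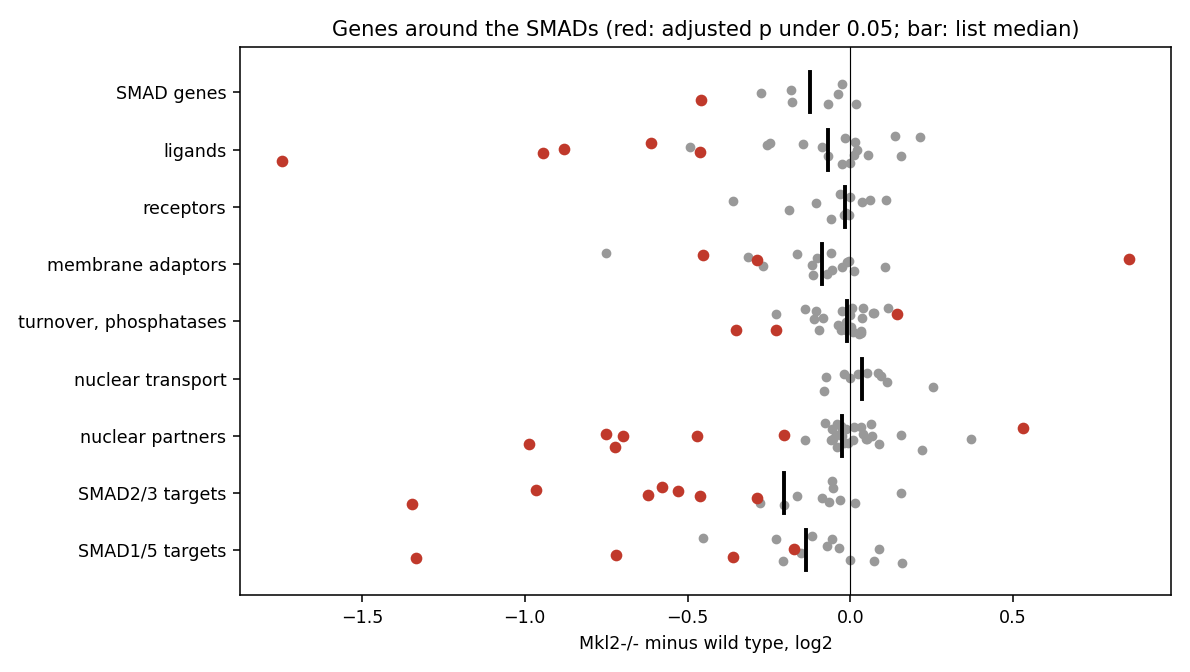
Differences, Mkl2-/- minus wild type on the log2 scale, of the SMAD genes and of 8 lists of genes that act with them; red points have a limma adjusted p under 0.05 and black bars are list medians. Red points lie mostly left of 0 among ligands, nuclear partners and both target lists. There are none among the 12 receptors and 10 nuclear transport genes, beside 9.27% of all genes.

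**Figure D5:**
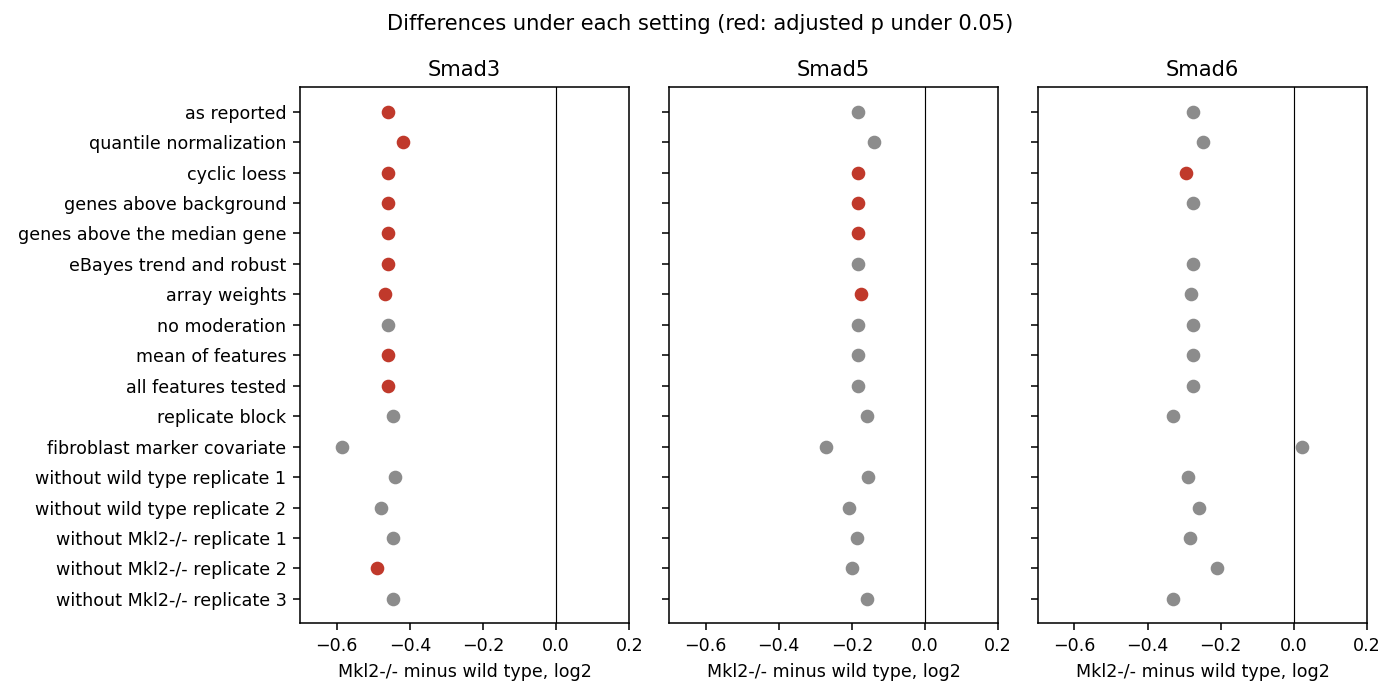
Differences of Smad3, Smad5 and Smad6, Mkl2-/- minus wild type on the log2 scale, as reported and under each alternative setting; red points have a limma adjusted p under 0.05, and Smad6 has no value where genes below the median gene are left out. Smad3 stays between -0.59 and -0.42 throughout, while Smad6 reaches 0.02 with the fibroblast marker covariate.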

How the data were processed

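Log2 expression was measured on 5 arrays, each from 1 culture. RMA and Affymetrix Expression Console 1.1 are named in the submitters' processing notes for the log2 values that the authors deposited; RMA compresses differences of dim features, and the values are rounded to 2 decimals. No label names further settings or a batch. A platform annotation gave 1 symbol to 21789 of 35556 features, and the feature with the highest mean was kept for each of 19938 genes, of which 13564 lay above the background level (95th percentile of olfactory receptor gene means). RefSeq (GRCm38.p6) gave chromosomes, gene order and start windows.

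The 2 genotypes were tested gene by gene in limma 3.58.1 (lmFit, eBayes; R 4.3.3; 3 residual and 0.885 prior degrees of freedom), two-sided, with Benjamini-Hochberg adjustment over all genes; the fit was tested on simulated data. Ratios between members used exact permutation over arrays. The named genes were the members, Mkl2, Mkl1 and Srf, each pathway list's genes past the threshold (at most the 6 with the smallest p), the 5 genes closest to the member with the smallest p, and its neighbours; Kat2b and Dact1, the seventh of their lists, Zwilch, the named markers and other list members were chosen after their values were seen. The members and lists were chosen with earlier results of these data known. Alternatives were 2 normalizations, 2 filters on dim genes, 3 variance models, 2 ways to treat features, the replicate number as a block, a fibroblast covariate and each array left out. Figures were drawn with matplotlib 3.10.9 in Python 3.11.15. The number of arrays, the rounding and the unknown number of cell lines limit the precision.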

Additional observations from a re-analysis of the deposited data

How the results depend on the processing

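Smad3 fell with an adjusted p under 0.05 in 9 of 16 alternatives and kept its direction in all 16 (-0.59 to -0.42). Smad3 has 1 feature, so it stays at -0.46 with either filter, either feature treatment, no moderation, or trended and robust moderation. It missed the threshold without moderation (-0.46, adjusted p = 0.0591), with the replicate number as a block (-0.445, adjusted p = 0.194), with the fibroblast covariate (-0.586, adjusted p = 0.141) and without any single array but Mkl2-/- replicate 2 (-0.49 to -0.44). The Mkl2 difference missed it without moderation (-0.532), with all features tested (-0.532), with the replicate block (-0.455), with the covariate (-0.752) and without any single array but Mkl2-/- replicate 3 (-0.57 to -0.455). The number of SMAD genes past the threshold, 1 as reported, was 3 after cyclic loess, 2 with genes above background, 2 with genes above the median gene and 2 with array weights. It was 0 without moderation, 0 with the replicate block, 0 with the covariate, and 0 to 1 with arrays left out. The 27 pathway genes became 41 after cyclic loess, 5 without moderation, 0 with the replicate block, 0 with the covariate and 0 to 11 with arrays left out. The family median was -0.147 to -0.073 with arrays left out, the smaller size without wild-type replicate 1. Directions reversed for Smad1 after quantile normalization (0.007), for Smad9 after cyclic loess (-0.010), with the replicate block (-0.005) and without Mkl2-/- replicate 3 (-0.005, in a range of -0.005 to 0.04 with arrays left out), and for Smad6 with the covariate (0.022), none past the threshold. Over all genes, 1848 passed (32.3% of them higher), beside 2906 after quantile normalization (43.2% higher), 2949 after cyclic loess and 294 without moderation, where 776 genes with no spread within groups had no p. They numbered 0 with the replicate block and 0 with the covariate, where 3827 and 3039 genes had an unadjusted p under 0.05. Each array left out, the block and the covariate also remove residual degrees of freedom. The replicate numbers pair nothing in the labels, and the differences between replicates 1 and 2 of the 2 groups correlated at 0.017 across genes. Causes of these changes were not tested. A single wild-type array remains where one is left out and is then assumed to vary like the other group.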
